A study of Mus musculus with 2 samples.

Results

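Mammalian cells burn fatty acids in mitochondria and in peroxisomes, and 41 genes of that pathway are described here over open chromatin of the mouse kidney. They were taken from a list of names: 20 genes for mitochondrial fatty acid oxidation, 10 for peroxisomal enzymes and 11 Pex genes, whose products (peroxins) build the peroxisome. The 41 genes are among 21938 protein-coding genes of the GENCODE M21 basic annotation, and every name matched a gene. Whole kidneys of 2 male B6CASTF1/J mice, a hybrid of C57BL/6J and CAST/EiJ, were taken at 25 days of age and assayed by DNase-seq, in which the enzyme DNase I cuts exposed DNA and the cut sites are sequenced. The labels give no treatment and no engineered allele. The labels number the mice separately but give both the same donor code. There is 1 group and no contrast between samples, so all values are descriptions without a test. Paired values stand for replicate 1 and then replicate 2, and any mean is followed by the standard deviation over these libraries.

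In the mitochondrion a fatty acid is activated to its acyl-CoA, carried across the inner membrane as an acylcarnitine and shortened by a repeating series of dehydrogenase, hydratase, second dehydrogenase and thiolase reactions, with electrons passed on through the electron transfer flavoprotein. Peroxisomes shorten very long and branched chains by a similar series, whose oxidase makes hydrogen peroxide that catalase removes. The proximal tubule of the kidney relies on fatty acid oxidation for energy and is rich in both organelles. Nuclear receptors of the PPAR, HNF4 and ERR families are known regulators of many of these genes, and PPAR binds with its partner RXR to a pair of half-sites in direct repeat with 1 base between them.

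All 7 proximal tubule marker genes examined had a promoter peak in both libraries, as did both loop of Henle markers and 2 of 3 podocyte markers. Of 5 hepatocyte, 3 adrenal cortex and 3 immune markers none had one in either library. Of 7 adipocyte and brown fat markers 3 had low peaks in both libraries, Cidea at 1.84 and 1.39, Fabp4 at 0.667 and 0.686 and Ucp1 at 0.632 and 0.427, while Adipoq, Plin1, Lep and Retn had none. Actn2 was the only one of 5 muscle and heart markers with a promoter peak. The libraries held 125393 and 177001 peaks and 237471 and 493495 footprints, short protected stretches inside open DNA. In a whole organ, fewer cells with an open site and less cutting per cell cannot be told apart.

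The sequences that follow show selected stretches, all outside annotated exons and read from the GRCm38 assembly (mm10) on the strand named. The first 5 are the places away from promoters that held an exact PPAR, HNF4 or ERR motif. Each motif lay in the 200 bp around a peak centre in both libraries and in a footprint of replicate 2. They are printed with 20 bases on either side and the motif in capitals. At Acox3 the motif began past the end of the replicate 1 peak, so it lay in a peak of replicate 2 only. None of these 5 places was in a footprint of replicate 1. In an intron of Decr1, 2,4-dienoyl-CoA reductase, a PPAR-type direct repeat lay at chr4:15925956-15926008, minus strand.
Decr1 intron: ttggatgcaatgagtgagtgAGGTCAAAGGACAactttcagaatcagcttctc
An intron of Pex13, a part of the docking complex for imported proteins, held the same type of repeat at chr11:23663003-23663055, minus strand.
Pex13 intron: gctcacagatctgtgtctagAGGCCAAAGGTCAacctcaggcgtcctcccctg
Upstream of Acaa1b, a peroxisomal thiolase, an HNF4 motif lay at chr9:119165719-119165767, plus strand.
Acaa1b upstream: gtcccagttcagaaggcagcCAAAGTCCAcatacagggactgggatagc
An intron of Cpt2, the inner-membrane carnitine palmitoyltransferase, held an ERR motif at chr4:107920519-107920567, minus strand.
Cpt2 intron: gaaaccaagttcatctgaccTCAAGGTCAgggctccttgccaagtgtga
An intron of Acox3, the peroxisomal pristanoyl-CoA oxidase, held an ERR motif at chr5:35593029-35593077, minus strand.
Acox3 intron: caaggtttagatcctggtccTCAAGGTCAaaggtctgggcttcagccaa

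The next stretches show where footprints of both libraries fell in the highest promoter peak of all 41 genes, that of Acsl1, and in 3 stretches chosen after their values were seen. Capitals mark bases inside a footprint of both libraries. The Acsl1 stretch, at chr8:46470681-46470940 on the plus strand, ends before the gene begins and held 4 GC boxes (GGGCGG on either strand), all within capitals.
Acsl1 promoter: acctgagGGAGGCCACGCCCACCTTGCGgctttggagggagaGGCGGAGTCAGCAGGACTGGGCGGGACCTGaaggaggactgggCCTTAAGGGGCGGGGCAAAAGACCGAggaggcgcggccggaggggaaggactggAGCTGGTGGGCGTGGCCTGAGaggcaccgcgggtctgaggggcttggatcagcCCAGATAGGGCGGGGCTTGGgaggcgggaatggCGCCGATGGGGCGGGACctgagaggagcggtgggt
The 85 bases between the start sites of Hadha and Hadhb, at chr5:30155163-30155247 and printed on the strand of Hadhb (plus), held 2 GC boxes, both in capitals.
Hadha to Hadhb: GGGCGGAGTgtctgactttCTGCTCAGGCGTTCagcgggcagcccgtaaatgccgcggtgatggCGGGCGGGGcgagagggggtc
The intronic peak of Cpt1a at chr19:3325441-3325620, plus strand, held 3 GC boxes and an E-box (CACGTG), all in capitals.
Cpt1a intron: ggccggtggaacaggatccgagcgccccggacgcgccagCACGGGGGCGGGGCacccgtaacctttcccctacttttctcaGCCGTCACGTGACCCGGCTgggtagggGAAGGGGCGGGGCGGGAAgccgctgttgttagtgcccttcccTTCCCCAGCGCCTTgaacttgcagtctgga
The peak beyond the end of Pex11a at chr7:79734681-79734980, printed on the strand of Pex11a (minus), held neither motif.
Pex11a downstream: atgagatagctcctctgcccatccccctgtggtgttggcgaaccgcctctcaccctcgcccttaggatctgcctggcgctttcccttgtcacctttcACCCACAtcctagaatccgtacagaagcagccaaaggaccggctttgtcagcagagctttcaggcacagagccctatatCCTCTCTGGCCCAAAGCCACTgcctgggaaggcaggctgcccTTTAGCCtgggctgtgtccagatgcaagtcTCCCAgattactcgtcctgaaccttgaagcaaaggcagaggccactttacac

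Every one of the 41 genes had a DNase I peak at its promoter in both libraries, where a promoter is 500 bp on either side of any annotated start and the highest overlapping peak is taken. Among all protein-coding genes 65.3% had such a peak in both libraries (14329 of 21938). The count of 41 was reached under every alternative for promoters, including the stricter peak list. Peak height is the deposited signal of a peak in its own library, and its median over all genes with a promoter peak was 7.36 and 6.63. The median over the 41 genes was 10.999 and 9.90, a mean of 10.4 ± 0.78 (SD, n = 2), and 30 and 32 of the 41 lay above the median of all genes. Of the 41 promoter peaks, 31 were centred within 100 bp of the gene's 5' end in both libraries, beside 55.5% of all genes with a promoter peak in both. Hadha and Hadhb share a promoter peak, which is counted for each gene here and below.

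**Figure D1:**
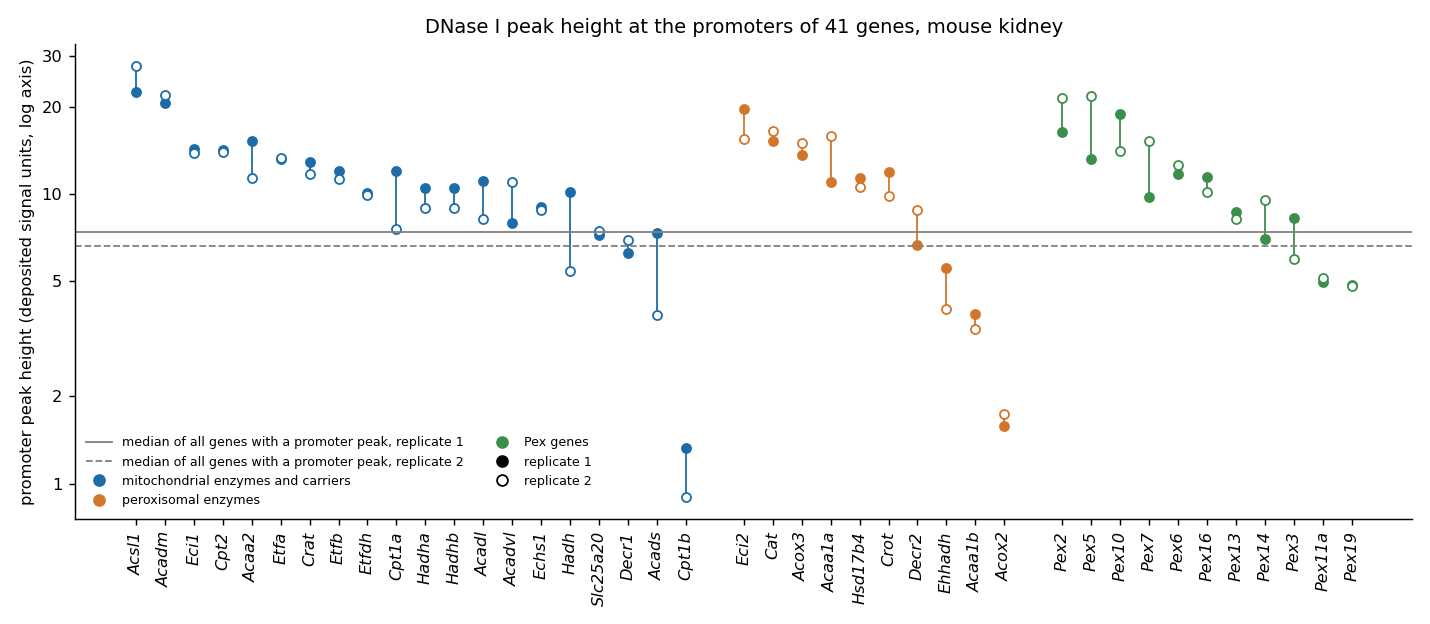
DNase I peak height at the promoter of each of the 41 genes (log axis, deposited signal units), with replicate 1 as filled and replicate 2 as open circles joined by a line, ordered by mean within each class. Grey lines are the medians over all genes with a promoter peak, 7.36 in replicate 1 (solid) and 6.63 in replicate 2 (dashed). Cpt1b and Acox2 stand below 2 in both libraries, and Acsl1 and Acadm above 20.

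Activation and carnitine transfer held both the highest and the lowest promoter peak of the 41. Acsl1 (ENSMUSG00000018796.13), the long-chain acyl-CoA synthetase that activates fatty acids, measured 22.5 and 27.7, a mean of 25.1 ± 3.7 (SD, n = 2), above 96.5% and 98.4% of genes with a promoter peak. Cpt1a, the liver isoform of the outer-membrane carnitine palmitoyltransferase that controls entry into the mitochondrion, measured 12.0 and 7.58. Its muscle isoform Cpt1b (ENSMUSG00000078937.8) measured 1.32 and 0.899, a mean of 1.11 ± 0.30 (SD, n = 2), higher than only 15.1% and 13.1% of genes with a promoter peak. The Cpt1a peak was thus the higher of these isoforms in each library, and the ranges did not overlap. The Cpt1b peak was centred 18 and 138 bp from its own 5' end, and no start of another gene lay at it. Cpt2 measured 14.1 and 14.0, the carnitine-acylcarnitine translocase gene Slc25a20 7.21 and 7.46, and the carnitine acetyltransferase gene Crat 12.9 and 11.7. The Crat peak also lay at a start of Ptpa.

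Among the acyl-CoA dehydrogenases, which take the first electrons from the chain, Acadm (medium chain) was the highest, at 20.5 and 22.0. Acads (short chain) was the lowest, at 7.32 and 3.81, so that the libraries lay on either side of 5. Acadvl (very long chain) measured 7.92 and 11.004. Acadl (long chain) measured 11.1 and 8.18, and its peak was centred 436 and 446 bp from the 5' end. Only Acadm was far from the others of this group in both libraries.

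Of the enzymes of the later steps, Acaa2, the mitochondrial 3-ketoacyl-CoA thiolase, was the highest at 15.3 and 11.4. Its peak lay also at 2 small RNA genes. Hadha and Hadhb, the alpha and beta subunits of the trifunctional protein, are transcribed away from each other and shared 1 promoter peak of 10.5 and 8.90, which covers the printed interval. Hadh, the short-chain 3-hydroxyacyl-CoA dehydrogenase, measured 10.2 and 5.41. Echs1, the short-chain enoyl-CoA hydratase, measured 9.02 and 8.80. All 5 of these genes were higher in replicate 1 than in replicate 2, as were 53.9% of all genes with a promoter peak in both, and Hadh differed the most of the 5. For unsaturated chains, the isomerase gene Eci1 measured 14.3 and 13.9 and Decr1 6.26 and 6.94.

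The 3 genes of electron transfer lay close together. Etfa and Etfb, the subunits of the electron transfer flavoprotein, measured 13.2 and 13.2, and 12.0 and 11.3. Etfdh, which passes the electrons to ubiquinone, measured 10.1 and 9.90. The peaks of Etfb and Etfdh lay also at starts of Gm45233 and 4930579G24Rik.

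Peroxisomal enzyme promoters spanned nearly as wide a range. Eci2, an enoyl-CoA isomerase, had the highest mean at 19.7 and 15.4 (17.5 ± 3.0, SD, n = 2), and Cat, catalase, followed at 15.2 and 16.4, the highest of the class in replicate 2. Acox3 measured 13.6 and 15.0, the carnitine octanoyltransferase gene Crot 11.9 and 9.86, and the reductase gene Decr2 6.66 and 8.77. The multifunctional enzymes of the pathway differed: Hsd17b4 (D-bifunctional protein) measured 11.4 and 10.5, and Ehhadh (L-bifunctional protein) 5.54 and 4.01. The ranges of these genes over the libraries did not overlap.

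Of the thiolase copies, Acaa1a measured 10.999 and 15.9 and Acaa1b 3.85 and 3.42, without overlap. These genes are near-identical copies and the handling of reads that match both was left unstated, so their heights are uncertain. Acox2, which oxidizes branched chains and bile acid intermediates, was the lowest of the class at 1.58 and 1.74 (1.66 ± 0.11, SD, n = 2). That peak was centred 902 bp from its 5' end and 381 bp from the nearest annotated start of the gene. The highest peak within 500 bp of the 5' end measured 1.22 and 1.39.

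Among the Pex genes, the 3 highest promoter peaks by mean belonged to genes for import of matrix proteins. Pex2 and Pex10, ubiquitin ligase subunits that act on the import receptors, measured 16.3 and 21.4, and 18.9 and 14.1. Pex5, the receptor for the C-terminal import signal, measured 13.2 and 21.7. Their order changed between the libraries, with Pex10 highest in replicate 1 and Pex5 in replicate 2. Pex6, an ATPase that recycles receptors, measured 11.7 and 12.6, and Pex7, the receptor for the N-terminal signal, 9.78 and 15.2. The docking proteins were lower, Pex13 at 8.63 and 8.18 and Pex14 at 6.96 and 9.52.

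The 3 genes for assembly of the peroxisomal membrane spanned a range that overlapped that of the import genes: Pex16, above Pex13 and Pex14 in both libraries, at 11.4 and 10.1, Pex3 at 8.28 and 5.94 and Pex19, the lowest Pex gene, at 4.84 and 4.82. Pex11a, which elongates peroxisomes before division, measured 4.97 and 5.14. The median was 11.7 and 14.1 over the 7 import genes and 8.28 and 5.94 over the 3 membrane genes. The peaks of Pex13, Pex3 and Pex11a were shared with Pus10, Adat2 and Wdr93.

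The enzyme genes as a whole did not separate from the Pex genes by promoter height. The median over the 30 enzyme genes was 11.04 and 9.88 (10.5 ± 0.82, SD, n = 2), and over the 11 Pex genes 9.78 and 10.1 (9.94 ± 0.24, SD, n = 2). The ratio of the medians was 1.13 in replicate 1 and 0.977 in replicate 2, on either side of 1. Above the median of all genes lay 22 and 24 of 30 enzyme genes and 8 and 8 of 11 Pex genes. The mitochondrial genes had medians of 10.8 and 9.40 and the peroxisomal enzymes 11.2 and 10.2.

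None of the 41 promoter heights was over 2-fold off the median ratio between the libraries, against 2.43% of the 14329 genes with a peak in both. With so low a share over all genes, none among 41 says little about these genes. Acads, at 1.86-fold, Hadh, at 1.82-fold, and Pex5, at 1.71-fold, were the furthest off. The median log2 ratio of replicate 2 over replicate 1 was -0.04 over the 41 genes and -0.05 over all. Every one of the 41 promoter peaks overlapped a footprint in its own library, where the background over genes with a promoter peak was 95.5% in replicate 1 and 97.8% in replicate 2.

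Promoters rich in CpG, as those of most housekeeping genes are, tend to be open in many tissues. CpG content was taken as CpG observed over expected within 500 bp of the 5' end, with 0.6 or more called CpG-rich. Of the 41 genes 29 were CpG-rich, 20 enzyme and 9 Pex genes, and all 29 had a promoter peak in both libraries, where 95.5% of all CpG-rich genes did. The other 12 were CpG-poor, 10 enzyme genes with Pex16 and Pex19, and all 12 had a promoter peak in both, where 38.0% of CpG-poor genes did. The median height of the 12 was 7.26 and 8.12, beside 2.66 and 2.46 over all CpG-poor genes with a promoter peak. Over the 29 it was 11.4 and 11.004, beside 9.68 and 8.94 over all CpG-rich genes with a promoter peak. Acox2 had the lowest CpG ratio, 0.12, and with Cpt1b at 0.34 was below the CpG-poor median in both libraries. Most of the 12 stood not far under the limit, whereas the 38.0% covers CpG-poor genes of any ratio. They were Pex19 and Acadm at 0.59, Pex16 at 0.58, Echs1 at 0.57, Cpt2 at 0.56, Cat at 0.55 and Slc25a20 at 0.52. Of these, Acadm and Cat had high peaks, and Pex19 was the lowest at 4.84 and 4.82. Acaa1b, at 0.67, was the lowest of the CpG-rich genes.

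**Figure D2:**
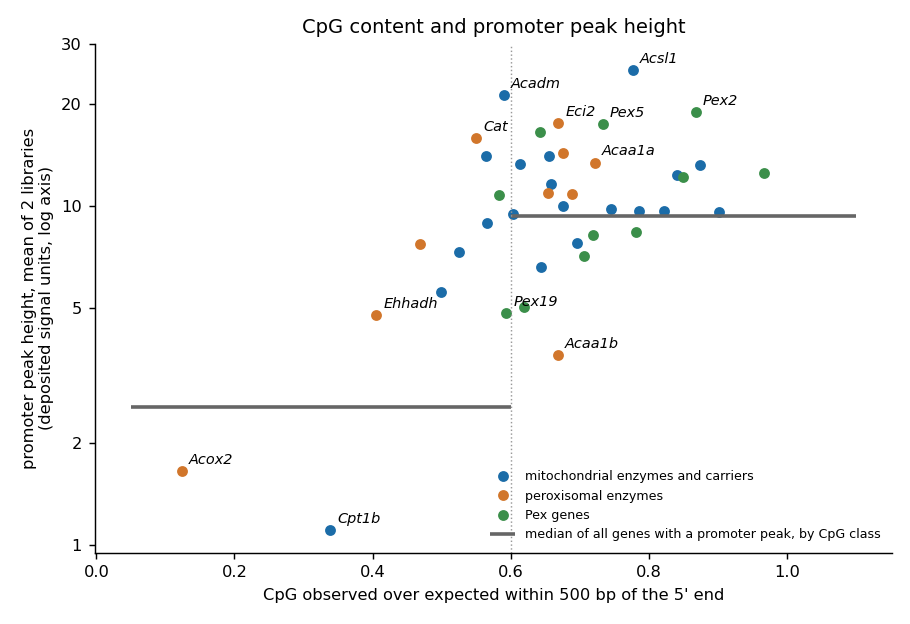
CpG observed over expected (horizontal axis) against mean promoter peak height of the libraries (log axis, deposited signal units) for the 41 genes, coloured by class. The dotted line marks the limit of 0.6, and grey bars are the median heights of all CpG-poor and CpG-rich genes with a promoter peak, averaged over the libraries; 10 of the 12 CpG-poor members lie above their bar, all but Acox2 and Cpt1b.

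Exact motifs for PPAR (half-sites AGGNCA in direct repeat with 1 base between), HNF4 (CAAAGTCCA), ERR (TCAAGGTCA) or HNF1 (GTTAATNAT) were found in none of the 41 promoter peaks, searched on both strands in the 200 bp around the peak centre. These motifs are rare in promoter peaks of all genes, between 0.0745% for ERR in replicate 1 and 0.413% for HNF4 in replicate 2. Nothing is read from their absence in 41 windows. Here and for distal peaks below, a motif in this window counts for the peak, even past the end of a narrow peak. The GC box bound by SP factors (GGGCGG) stood in 32 of 41 promoter peaks (78.0%) in each library, beside 63.8% and 61.1% of all promoter peaks, and in a footprint in 27 and 30 of them, where 47.8% and 53.4% of all promoter peaks had one in a footprint. The NRF1 motif (GCGCNTGCG) stood in 5 of 41 (12.2%) in each library, beside 12.6% and 11.5%. It lay in footprints of both libraries at Etfb, Etfdh, Hsd17b4 and Pex10. At Etfdh it lay outside the highest promoter peak of replicate 2, which was 80 bp wide. The YY1 motif (AAGATGGCG) stood in 4 and 3 of 41, 9.76% and 7.32%, beside 2.37% and 2.21%, and in both libraries at Etfb, Pex14 and Pex19. The NFY motif (CCAATCA, counted together with its variant CCAATGA) stood in 7 and 9, 17.1% and 22.0%, beside 11.9% and 12.3%. The ETS motif (CCGGAAG) stood in 6 and 7, 14.6% and 17.1%, beside 14.3% and 13.8%, and the CREB motif (TGACGTCA) in 1 and 1, 2.44% in each, beside 3.19% and 3.22%. The E-box (CACGTG) stood in 0 and 2, beside 7.92% and 8.17%. In these counts the peak shared by Hadha and Hadhb, which holds GC boxes, stands for each gene, whereas a peak counts once among all promoter peaks.

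A looser search, added after the exact matches were seen, allowed up to 2 mismatches to AGGTCA half-sites with 1 base between. It found a place in 4 of 30 enzyme promoter peaks (13.3%) in both libraries, those of Slc25a20, Acadvl, Echs1 and Etfa. Among all promoter peaks 1.65% and 1.87% had one, and none of the 11 Pex promoter peaks did. With so low a share over all promoter peaks, none among 11 says little, and the enzyme share rests on 4 promoters. In distal peaks the same search gave shares nearer those of all distal peaks, 6.25% and 7.54% of enzyme loci's peaks and 2.17% and 7.46% of Pex loci's, beside 5.30% and 5.64%. At Slc25a20 and Echs1 it lay in footprints of both libraries, at Acadvl in replicate 2 only and at Etfa in neither. The place at Echs1 is upstream of the gene, at chr7:140116477-140116524 on the minus strand, and is printed with the repeat in capitals because it is the only one of the 3 in a footprint that lies outside annotated exons.
Echs1 upstream: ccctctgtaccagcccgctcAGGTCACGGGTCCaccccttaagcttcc
The NRF1 motif of Etfb lies 17 bp upstream of its 5' end and is printed at chr7:43444042-43444082, minus strand, with the motif in capitals.
Etfb upstream: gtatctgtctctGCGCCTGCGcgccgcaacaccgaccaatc

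Over whole loci, the gene and 10 kb on each side, both enzyme and Pex genes held more peaks per kb than the median gene. The median was 0.135 and 0.193 peaks per kb over the 30 enzyme genes, 0.176 and 0.232 over the 11 Pex genes and 0.0849 and 0.117 over all protein-coding genes, many of which have no promoter peak. Footprints had medians of 0.405 and 0.710 per kb over enzyme genes, 0.277 and 0.507 over Pex genes and 0.181 and 0.355 over all. The enzyme median was thus lower than the Pex median for peaks, at a ratio of 0.80 ± 0.046 (SD, n = 2), and higher for footprints, at 1.43 ± 0.042 (SD, n = 2). These orders depended on how a locus was drawn: over the gene body alone the ratio for peaks was 1.11, and with 50 kb on each side the ratio for footprints was 0.956. For peaks over 1 kb from every start, called distal here, the ratio was 0.807 in replicate 1 and 1.42 in replicate 2, so the libraries differed in its direction.

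**Figure D3:**
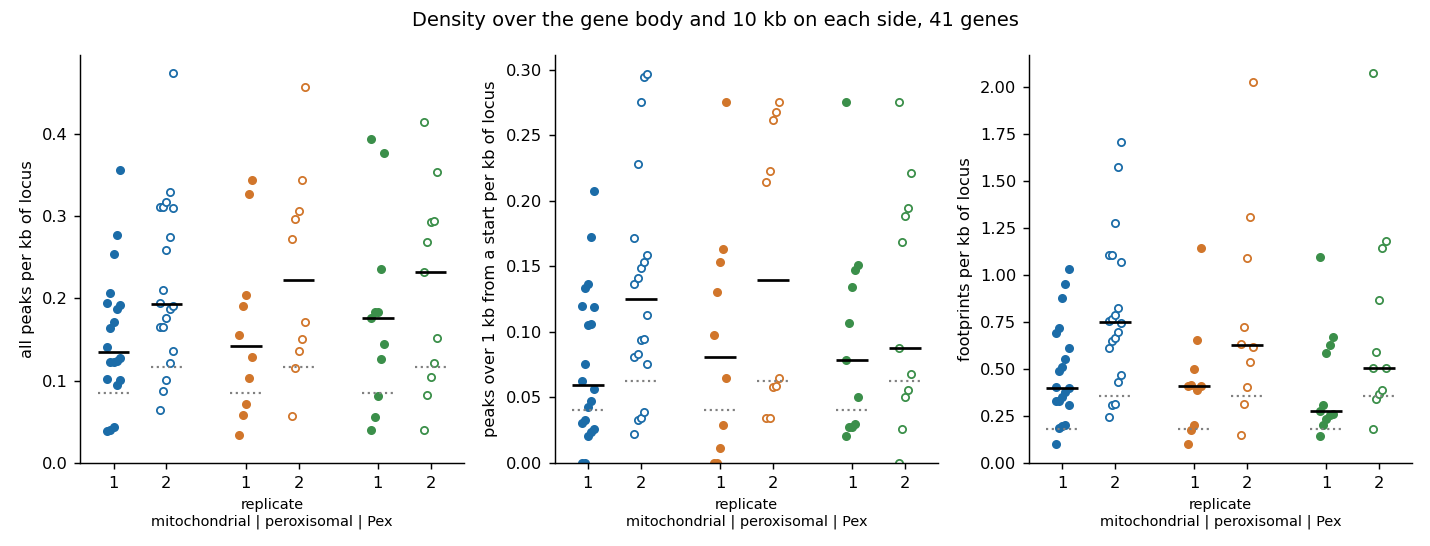
Peaks, distal peaks and footprints per kb of locus for mitochondrial (blue), peroxisomal enzyme (orange) and Pex genes (green) in replicate 1 (filled) and replicate 2 (open), each point 1 gene. Black bars are class medians and dotted bars the median over all protein-coding genes, for peaks 0.0849 in replicate 1 and 0.117 in replicate 2; every class median lies above its dotted bar, and the classes overlap widely.

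By mean peaks per kb, the densest loci were those of Etfb with 12 and 16 peaks, Pex16 with 10 and 11, Acaa1a with 10 and 14, Pex10 with 10 and 9 and Acaa1b with 10 and 10. These loci were short, from 25.4 kb at Pex10 to 33.7 kb at Etfb. The sparsest were Pex3 with 2 and 2 over 49.3 kb, Hsd17b4 with 3 and 5 over 88.1 kb and Etfa with 3 and 5 over 77.7 kb. The median locus was 46.8 kb for enzyme genes and 36.1 kb for Pex genes, and the part of length in these densities was not tested. The longest locus, Pex14 at 159 kb, had the most peaks in number, 23 and 37. Dense loci thus included both enzyme and Pex genes. Of the 286 distinct peaks in these loci in replicate 1, 94.1% overlapped a peak of replicate 2, beside 90.3% for the loci of all protein-coding genes. In the other direction 66.2% of 408 did, beside 64.5%. Of footprints, 82.4% of 782 recurred from replicate 1 in replicate 2 and 42.7% of 1358 from replicate 2 in replicate 1, beside 78.3% and 35.1% for all genes.

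Distal peaks present in both libraries numbered 149, of which 84 lay in introns, 7 in exons, 23 upstream and 35 downstream of their gene. A peak inside Hadha that also lies in the Hadhb locus is counted for each gene. Of the 41 loci 36 had at least 1 shared distal peak, a share not counted over all genes. Loci without any distal peak, shared or not, numbered 4 and 1 of 41, beside 5732 and 4506 of 21938 protein-coding genes. Their median height was 1.17 and 1.52 over 108 peaks of enzyme loci and 0.957 and 1.11 over 41 of Pex loci. At 4 genes, Cpt1a, Acadvl, Acox2 and Pex14, a distal peak was higher than the promoter peak in both libraries, beside 20.3% of all genes with a promoter peak in both.

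At Cpt1a the intronic peak, 2.25 kb from the 5' end and printed above, measured 15.8 and 13.3, beside 12.0 and 7.58 at the promoter. It held 4 footprints in each library and lay 2182 bp from the nearest start of any annotated transcript. A known control region for this gene lies in its first intron. Between the promoter and the intronic peak a further peak 0.806 kb from the 5' end measured 7.36 and 8.53, and another 1.49 kb upstream, 544 bp from the start of a transcript outside the basic set, 5.25 and 6.17.

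The other high distal peaks lay partly in neighbouring genes. The highest was 6.19 kb upstream of Acadvl, at 12.1 and 19.5, within Dlg4, at chr11:70021481-70021720. In an intron of Pex14 18.2 kb from the 5' end a peak measured 9.43 and 9.63, at chr4:149081621-149081760. A peak 21.5 kb from the 5' end of Etfb, at 6.29 and 11.2, lay 84 bp from a transcript start of Vsig10l that is not in the basic set. One 10.96 kb from the 5' end of Acaa1a, downstream of that gene and within Slc22a14, measured 8.26 and 7.90. Acadl had an intronic peak of 5.79 and 8.63 and Cat one of 5.74 and 5.71. At Acox2, the highest distal peak was intronic, 3.79 kb from the 5' end, and measured 2.09 and 5.44, above a promoter peak of 1.58 and 1.74.

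**Figure D4:**
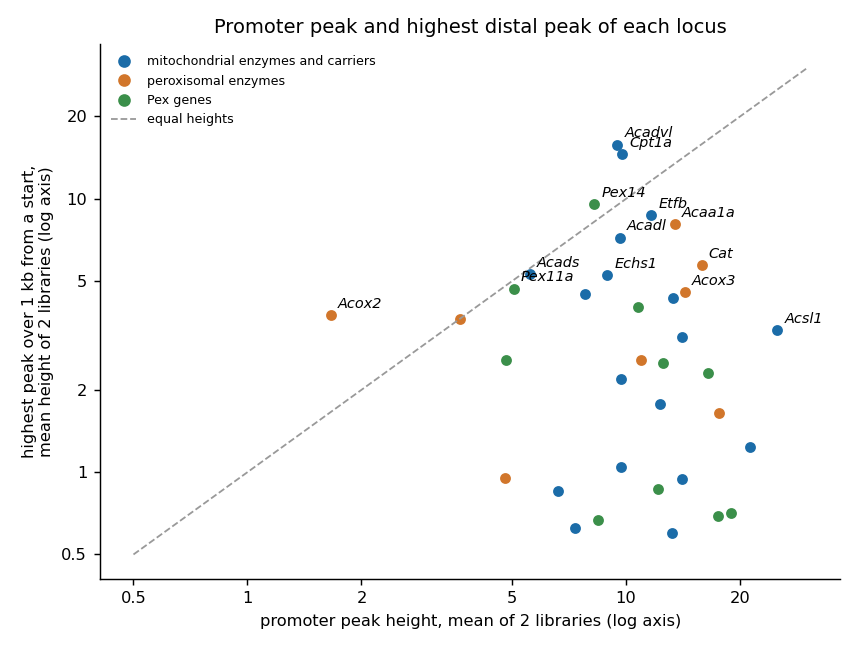
Mean promoter peak height against the mean height of the highest distal peak present in both libraries (both log axes, deposited signal units), each point 1 of the 36 loci with such a peak, coloured by class. The dashed line marks equal heights. Acadvl, Cpt1a, Pex14 and Acox2 lie above it, and their distal peak was the higher in each library. Acaa1b lies almost on the line, at a distal mean of 3.637 and a promoter mean of 3.636. Acsl1, with the highest promoter peak, lies far below.

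Pex11a had a low promoter peak and several peaks of similar or lower height beyond its end. The peak printed above, 8.25 kb from its 5' end and past its last exon, measured 4.44 and 4.95, close to the promoter at 4.97 and 5.14. Further peaks at 13.7, 14.7 and 15.8 kb lay within Plin1, the neighbouring perilipin gene of fat cells, at 3.42 and 2.85, 2.75 and 1.75, and 2.77 and 4.78. Plin1 itself had no promoter peak. At Acsl1 the promoter peak of 22.5 and 27.7 was followed by 9 and 25 distal peaks, of which the highest shared one measured 2.67 and 3.94.

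**Figure D5:**
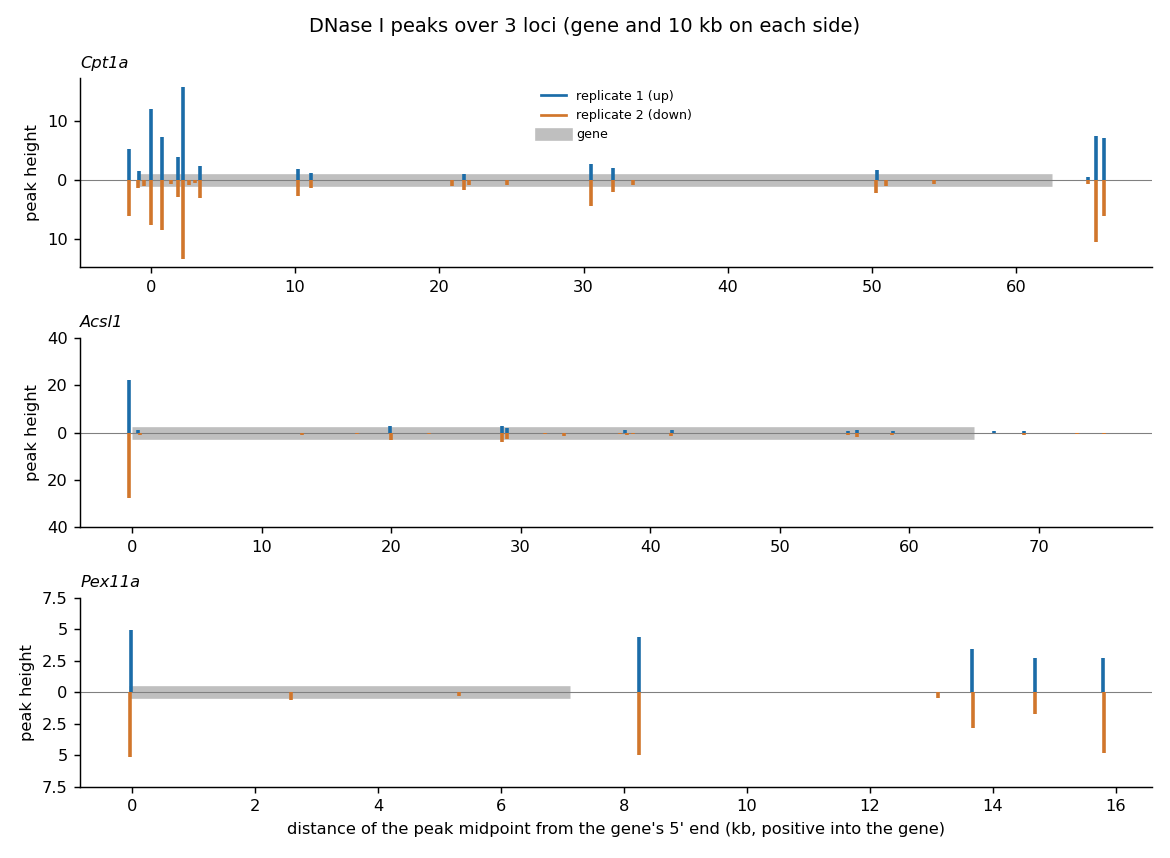
Peaks along Cpt1a, Acsl1 and Pex11a by distance of the peak midpoint from the 5' end (kb), with height in deposited signal units drawn up for replicate 1 and down for replicate 2, and the gene as a grey bar. At Cpt1a the peak 2.25 kb into the gene is the highest of the locus, at Acsl1 the promoter peak is, and at Pex11a the promoter peak and the peak at 8.25 kb are of similar height.

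Distal peaks were searched in the same 200 bp around the peak centre. The ERR motif stood there for 3 of 112 peaks of enzyme loci in replicate 1 (2.68%) and 3 of 199 in replicate 2 (1.51%). Over all distal peaks the shares were 0.577% and 0.663%. The HNF4 motif stood in 2 (1.79%) and 5 (2.51%), beside 1.08% and 1.08%, and the PPAR-type repeat in 1 (0.893%) and 2 (1.01%), beside 0.817% and 0.911%. In the 46 and 67 distal peaks of Pex loci, ERR stood in 1 (2.17%) and 0 and HNF4 in 0 and 1 (1.49%). The PPAR-type repeat stood there in 1 (2.17%) and 1 (1.49%), shares above those of the enzyme loci. With so few matches these shares are imprecise. Some matches lay in the window but past the end of their peak. Among these were ERR at Acox3 in replicate 1, and HNF4 at Hadh and the PPAR-type repeat at Acaa2 in replicate 2. The printed places lay in peaks of low to moderate height, or at Acox3 in replicate 1 just past the end of one. Heights were 0.803 and 0.556 at Decr1, 0.367 and 0.571 at Pex13 and 2.26 and 4.83 at Acaa1b. They were 0.521 and 0.810 at Cpt2 and 0.709 and 0.854 at Acox3. The remaining places found in both libraries, an HNF4 motif at Acsl1 and an ERR motif at Hadh, lay in annotated exons and are not printed. The ERR motif of Hadh lay in a peak of 2.32 and 1.97.

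Other genes of the pathway were examined from a list of 46. All 46 had a promoter peak in both libraries, at a median height of 8.56 and 7.58, between the median of all genes with a promoter peak and that of the 41. Pex11g, another division gene, measured 22.8 and 36.5, and Slc22a5, the plasma membrane carnitine transporter, 19.1 and 33.2. The lowest by mean were Pex5l, at 0.487 and 0.407, Acsl6, at 0.615 and 0.770, and Acot3, at 1.14 and 0.591.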

How the data were processed

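Each library came with its own peak lists, footprints and a table of cut rates, the last not analysed here. Per the labels and file headers the assembly is mm10; for the aligner, the peak caller and the alignment of CAST/EiJ reads, details were not given in the sources used here. Peak height is the signal value the authors deposited for each peak of the longer of the 2 peak lists per library; the shorter list served as an alternative. Footprints are those deposited by the authors at a false discovery rate (q-value) of 0.01. The absolute depth is unknown, and the smallest step between heights was 0.00855 in replicate 1 and 0.00497 in replicate 2, a ratio of 1.72.

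Starts and genes came from GENCODE M21 and sequence from the GRCm38.p6 genome. Promoters, loci (10 kb flanks), distal peaks (over 1 kb from basic starts) and 11 motifs were computed in Python 3.11.15 with numpy 2.4.6 and pysam 0.24.0; overlap meant at least 1 bp. The counting was tested on simulated peaks. The members, classes and lists were chosen with earlier results of these data known. All 41 members are given; loci and distal peaks are named by rank (the 5 densest, the 3 sparsest, the 5 highest distal peaks); other named genes were chosen after their values were seen.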

Additional observations from a re-analysis of the deposited data

How the results depend on the processing

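The alternatives were the stricter peak list, the upper 50% of peaks by height, the 5' end alone, promoter windows of 1000 bp, footprints wholly inside a peak or in peaks alone, loci of the gene body alone or with 50 kb flanks, and each library alone. Promoter peaks stayed at 30 of 30 enzyme and 11 of 11 Pex genes under the 6 alternatives that bear on promoters (both peak thresholds, the 1000 bp window, the 5' end alone and each library alone). The enzyme over Pex ratio of peaks per kb was 0.7996 as reported, 0.994 with the stricter list, 1.01 with the upper 50% of peaks, 1.11 over gene bodies and 0.931 with 50 kb flanks. For distal peaks the ratio was 1.11 as reported (0.807 and 1.42 in the libraries alone), 1.67 with the stricter list, 1.98 with the upper 50%, 1.03 over gene bodies and 0.990 with 50 kb flanks. For footprints it was 1.43 as reported, 1.09 over gene bodies and 0.956 with 50 kb flanks. The cause was not tested. Of 43 alternative values for the main comparisons, 35 stayed within the spread between the libraries or, for counts, within 1.5 times. All 8 that did not were ratios of peaks, distal peaks or footprints per kb. The 35 are no measure of stability. A library alone could not leave a spread made from both, even where the ratio changed direction. Promoter counts and footprint shares stood at their maximum throughout. No depth was given, so no counting interval was possible.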
